A study of Mus musculus with 45 samples.

Results

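The Cyp4a fatty acid hydroxylases are cytochrome P450 enzymes of the liver, and 6 of them were followed here by name: Cyp4a10, Cyp4a14, Cyp4a31, Cyp4a32, Cyp4a12a and Cyp4a12b. They are 6 of the 24946 genes with a usable name in a table of TPM values (the share of transcripts that each gene takes, a level scaled for gene length and library depth) from mouse liver, and all 6 are in it. The table holds 45 libraries of polyadenylated RNA in 12 groups, 9 of 4 libraries and 3 of 3. All mice are labelled wild type. Those of the peak stage were given the Lieber-DeCarli liquid diet, with ethanol or as its ethanol-free control, for 6 weeks. Ethanol-labelled mice of the early resolution stage went back to the control diet for 3 days after 6 weeks of ethanol, and those of the late resolution stage for 2 weeks. Each stage has control-labelled and ethanol-labelled libraries of female and male label. The labels give neither the age of the mice nor how control-labelled mice were fed during resolution, and they do not say that replicates are separate animals. The tests below therefore rest on the variation among libraries, which may be technical.

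Cyp4a enzymes add a hydroxyl group to the last carbon of fatty acids such as lauric and arachidonic acid, the first step of omega oxidation, which yields dicarboxylic acids for breakdown in peroxisomes. Cyp4a10 and Cyp4a14 are textbook targets of PPARA, the nuclear receptor that fatty acids and fibrate drugs activate in hepatocytes, and they respond to fasting. Cyp4a12a and Cyp4a12b are male-biased in mouse liver, where the pulsatile growth hormone secretion of males acts through STAT5B, and Cyp4a12a makes the vasoactive product 20-hydroxyeicosatetraenoic acid. Cyp4a31 and Cyp4a32 are close relatives of Cyp4a10 and are less studied. Below, Cyp4a10 and Cyp4a14 are called the PPARA targets and the Cyp4a12 pair the growth hormone subgroup, from this background. Cyp4a31 and Cyp4a32 stand beside Cyp4a10 by sequence alone, and the values of Cyp4a32 did not follow those of Cyp4a10.

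The 6 genes lie in 1 cluster on chromosome 4 of the mm10 build in the GENCODE M21 annotation, all protein-coding, with the pseudogene Cyp4a30-ps between Cyp4a12a and Cyp4a12b and the protein-coding Cyp4a30b between Cyp4a12b and Cyp4a14. In order they are Cyp4a12a (ENSMUSG00000066071.6, chr4:115299046-115332815), Cyp4a12b (ENSMUSG00000078597.2, chr4:115411624-115439034), Cyp4a14 (ENSMUSG00000028715.2, chr4:115486200-115496142), Cyp4a10 (ENSMUSG00000066072.13, chr4:115518264-115533649), Cyp4a31 (ENSMUSG00000028712.12, chr4:115563649-115579015) and Cyp4a32 (ENSMUSG00000063929.6, chr4:115600969-115621602). Cyp4a14 is on the minus strand and the other 5 are on the plus strand. Their coding sequences are 1521 to 1527 bases long.

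The stretch that encodes the loop around the heme-binding cysteine, shown because every P450 needs it for catalysis, was nearly the same in all 6. It is given 5′ to 3′ on the coding strand from the GENCODE M21 transcripts, 30 bases long, with capitals where a base differs from Cyp4a10.
Cyp4a10: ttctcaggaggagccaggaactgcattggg
Cyp4a31: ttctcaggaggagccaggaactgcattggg
Cyp4a32: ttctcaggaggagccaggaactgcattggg
Cyp4a14: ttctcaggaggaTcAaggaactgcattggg
Cyp4a12a: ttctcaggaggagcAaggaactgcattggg
Cyp4a12b: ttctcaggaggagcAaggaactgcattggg
Cyp4a10, Cyp4a31 and Cyp4a32 were identical over this loop, the Cyp4a12 pair differed from them at 1 base and Cyp4a14 at 2.

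Over the whole coding sequence the members formed 2 close sets and 1 distant gene. Cyp4a12a and Cyp4a12b shared 98.5% of aligned bases. Cyp4a10 shared 97.2% with Cyp4a32 and 96.6% with Cyp4a31, and Cyp4a14 shared 75.3% with Cyp4a10. Capitals below mark bases where the listed genes differ among themselves. Each window of 60 coding bases was chosen as the one with the most differences in its set. The first, coding bases 624 to 683 of the Cyp4a12 pair, holds 4 of their 23 differences.
Cyp4a12a: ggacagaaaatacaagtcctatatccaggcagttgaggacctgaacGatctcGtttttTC
Cyp4a12b: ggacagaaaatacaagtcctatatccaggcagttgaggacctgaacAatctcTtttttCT
The second, coding bases 200 to 259 of the Cyp4a10 set, holds 9 of the 77 positions at which the 3 genes are not all alike.
Cyp4a10: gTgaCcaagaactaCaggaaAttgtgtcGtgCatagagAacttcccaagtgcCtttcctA
Cyp4a31: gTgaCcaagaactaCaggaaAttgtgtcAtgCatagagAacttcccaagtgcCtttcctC
Cyp4a32: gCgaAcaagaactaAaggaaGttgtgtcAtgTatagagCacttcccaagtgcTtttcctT
Shared 50-base windows were counted in the transcript of each gene with the longest coding sequence. That of Cyp4a32 was 1530 bases long, 1527 of them coding, against 2109 to 2509 bases for the others. Its share therefore covers almost only coding sequence and does not compare directly with theirs. Cyp4a12a shared 48.9% of its windows with another annotated gene, Cyp4a12b 49.4%, Cyp4a32 46.8%, Cyp4a10 30.5% and Cyp4a31 21.7%, against 0.245% for Cyp4a14. How the authors divided reads between such copies is not given in the sources used here, so the separate levels of these 5 genes are uncertain where a close relative is far more abundant, and Cyp4a14 is the member least open to this.

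The labels of the libraries were checked against sex chromosome transcripts first, because the growth hormone subgroup is known as sex-biased. Xist, the noncoding RNA of the inactive X chromosome, was between 13.7 and 51.8 TPM in all 21 ethanol-labelled libraries, of both sex labels. It was at most 0.35 TPM in 23 of the 24 control-labelled libraries, again of both sex labels. The exception was the library labelled late control female 1, with Xist at 39.5 TPM and the Y-linked Ddx3y and Eif2s3y at 0. Xist went against the sex label in 22 of 45 libraries. In these libraries the diet label and the sex chromosome transcripts therefore cannot be told apart, apart from that 1 library, and each difference by diet label below carries this limit. The 7 hepatocyte markers summed to between 76489 and 201680 TPM in all libraries, and the 5 kidney markers summed to at most 0.37 TPM in all groups except early ethanol male-labelled, where they summed to between 0.23 and 4.11 TPM, with Kap, the highest of them in any library, at up to 3.88 TPM. The files give no read counts, so depth is unknown beyond the 15093 to 16402 genes listed above 0 per library. In bulk tissue, fewer cells of a type and less RNA per cell cannot be told apart.

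**Figure D1:**
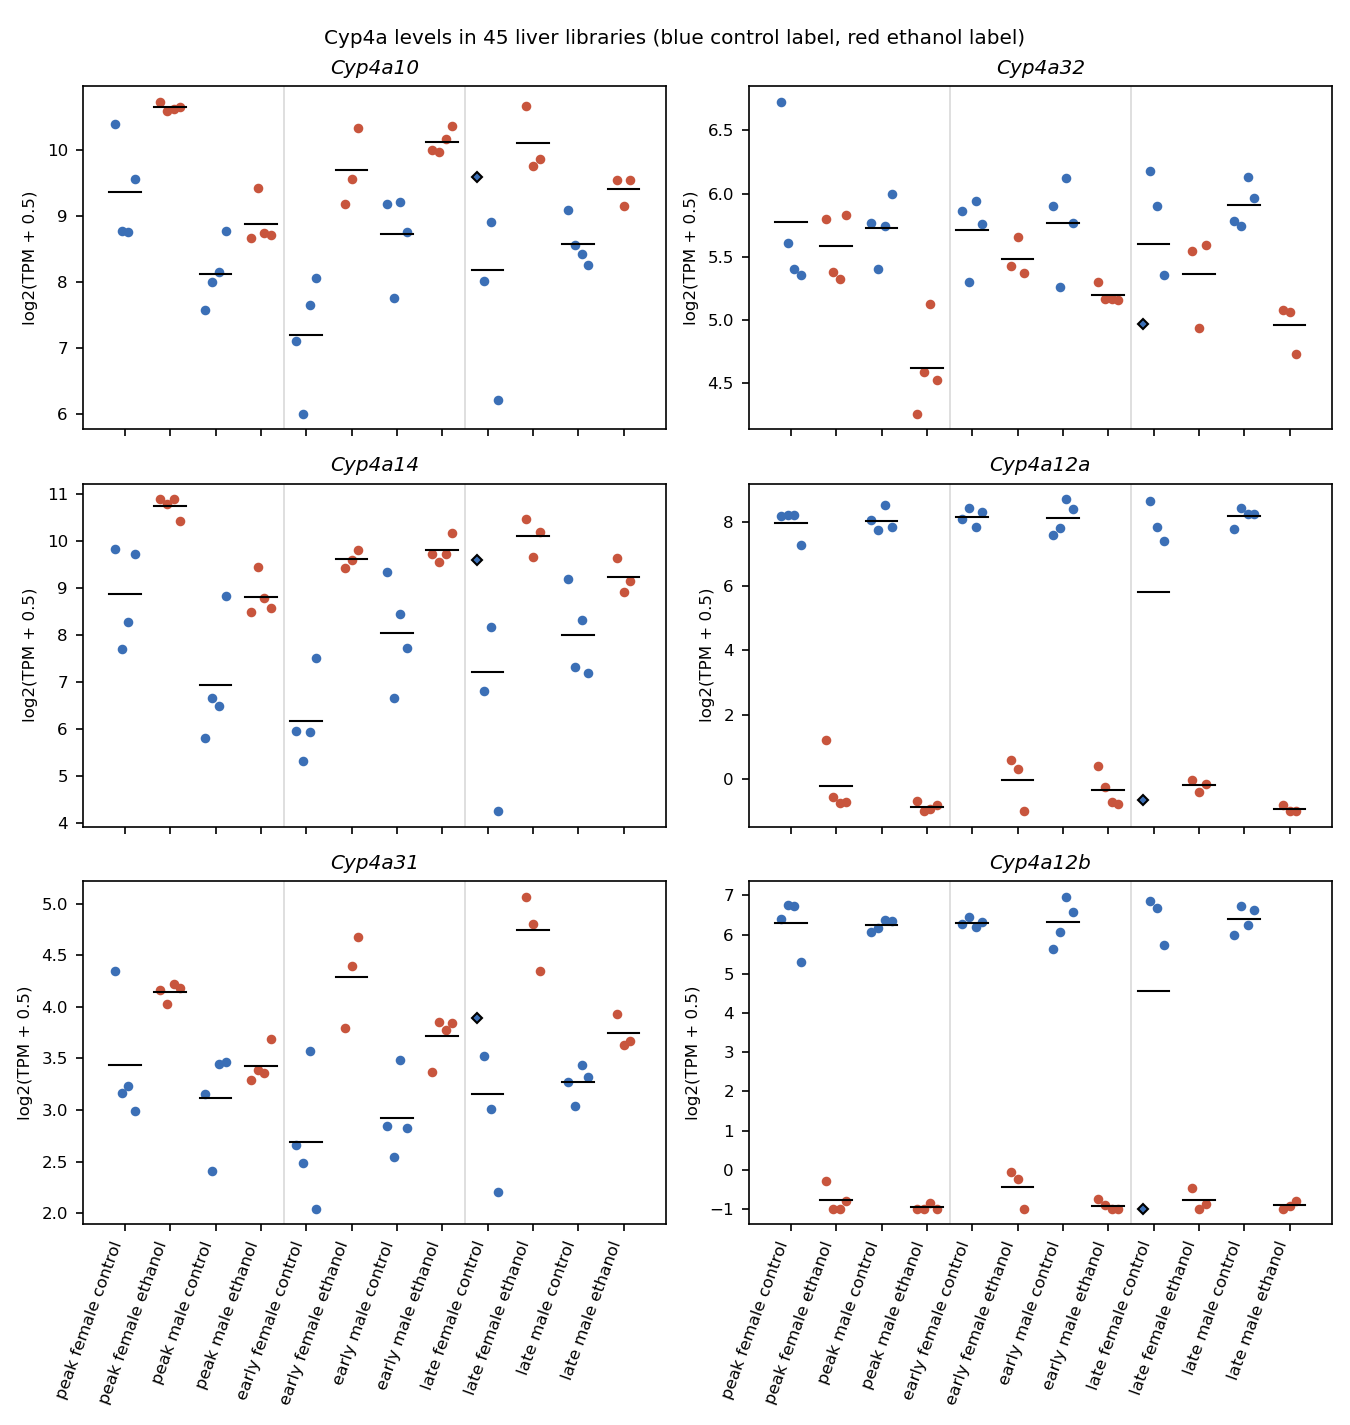
Level of each Cyp4a member as log2(TPM + 0.5) in 45 libraries, by group, with blue points for control-labelled and red for ethanol-labelled libraries, black bars for group means and a diamond for late control female 1. Cyp4a12a and Cyp4a12b fall into a high and a low set with nothing between, and the diamond lies in the low set, while the other 4 members vary within each group.

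The growth hormone subgroup was close to absent in every ethanol-labelled library and abundant in all control-labelled libraries but 1. Cyp4a12a in the peak control female-labelled libraries was 287, 295, 291 and 155 TPM, and in the peak control male-labelled ones 264, 211, 361 and 225 TPM. In the peak ethanol-labelled libraries it was 1.81, 0.18, 0.09 and 0.11 TPM under the female label and 0.12, 0, 0.03 and 0.07 TPM under the male label. The ranges of the diet labels did not overlap, and the sex label made no visible difference within either. Across all stages, Cyp4a12a was between 155 and 413 TPM in the 23 control-labelled libraries with low Xist and between 0 and 1.81 TPM in the 21 ethanol-labelled libraries, 4 of which list it at 0.

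Cyp4a12b followed Cyp4a12a at a lower level. The ratio of Cyp4a12b to Cyp4a12a had a median of 0.292 over control-labelled libraries and lay between 0.227 and 0.364 at peak, between 0.254 and 0.319 at early resolution and between 0 and 0.446 at late resolution, the 0 being late control female 1. Cyp4a12b was 39.3 to 125 TPM in the 23 low-Xist control-labelled libraries and 0 to 0.46 TPM in the ethanol-labelled ones, 10 of which list it at 0. Late control female 1 held Cyp4a12a at 0.13 TPM and Cyp4a12b at 0. It is the control-labelled library that resembles the ethanol-labelled ones in both genes and in Xist.

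The test of diet label was a limma fit on log2(TPM + 0.5) over 11244 genes with Benjamini-Hochberg adjustment, averaging both sex labels within a stage, and a difference is called at an adjusted p under 0.05. At peak 27.1% of all genes were called, 17.3% higher and 9.81% lower in ethanol-labelled libraries, and 5 of the 6 members were called, 2 higher and 3 lower. Cyp4a12a fell by 8.52 ± 0.66 (SE) on the log2 scale (limma adjusted p = 4.1e-12), and Cyp4a12b fell by 7.13 ± 0.56 (adjusted p = 5e-12). Both were lower in 8 of 8 ethanol-labelled libraries than the control mean, and neither overlapped the control range, as was the case for 1.15% of all genes in that direction. The size of these differences depends on the pseudocount because the low values are near 0: Cyp4a12a was at -10.07 with a pseudocount of 0.1 and at -6.83 with 2.

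At early resolution, Cyp4a12a was 269, 339, 226 and 315 TPM in control female-labelled libraries and 189, 219.7, 413 and 334 TPM in control male-labelled ones. The ethanol-labelled libraries held 1.01, 0.74 and 0 TPM under the female label and 0.82, 0.34, 0.11 and 0.09 TPM under the male label. After 3 days back on the control diet the separation between diet labels was still complete for both genes, as for 0.88% of all genes in that direction. At this stage 16.7% of all genes were called, 14.3% higher and 2.46% lower, and 5 of 6 members were, 3 higher and 2 lower. Cyp4a12a fell by 8.31 ± 0.69 (limma adjusted p = 3e-11) and Cyp4a12b fell by 6.99 ± 0.58 (adjusted p = 3.1e-11) on the log2 scale.

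At late resolution the control female-labelled libraries held Cyp4a12a at 0.13, 397, 229 and 169 TPM and the control male-labelled ones at 218, 341, 303 and 299.7 TPM. The ethanol-labelled libraries were at 0.49, 0.25 and 0.4 TPM under the female label and at 0.07, 0 and 0 TPM under the male label. The ranges met only through late control female 1. Here 12.8% of all genes were called, 8.82% higher and 3.98% lower, and all 6 members were, 3 in each direction. Cyp4a12a fell by 7.55 ± 0.71 (limma adjusted p = 6.7e-10) and Cyp4a12b fell by 6.32 ± 0.61 (adjusted p = 9e-10) on the log2 scale. Without late control female 1 the differences were -8.63 and -7.25, over 1.5 times larger as folds.

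**Figure D2:**
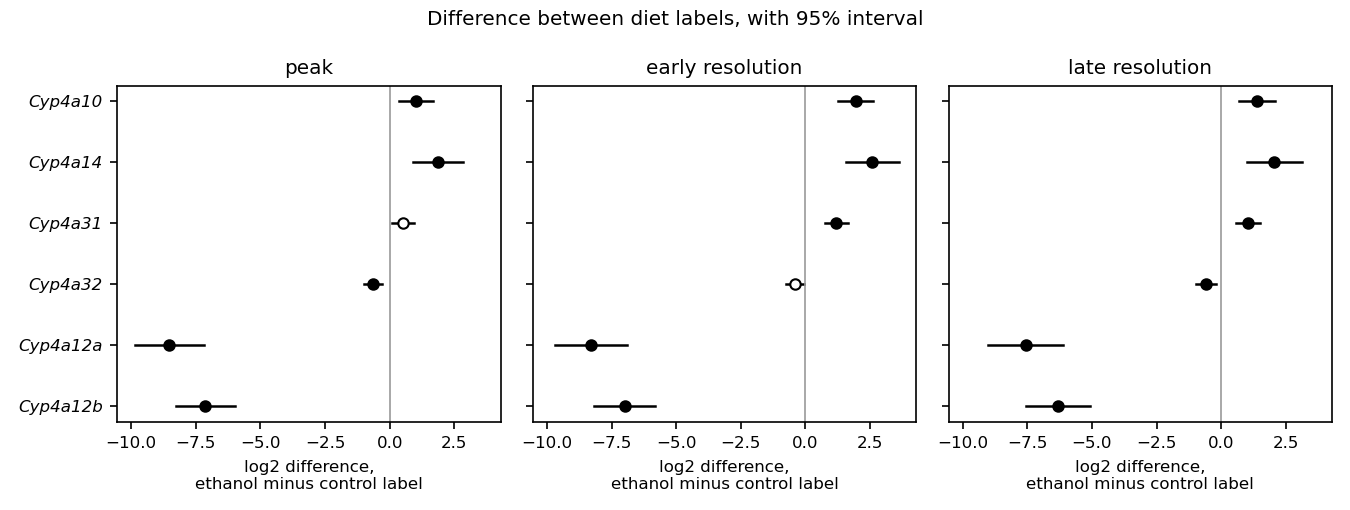
Difference between ethanol-labelled and control-labelled libraries for each member and stage, on the log2(TPM + 0.5) scale, with unadjusted 95% intervals; filled points have a limma adjusted p under 0.05. Cyp4a12a and Cyp4a12b lie between -8.52 and -6.32 at all 3 stages, while Cyp4a10 and Cyp4a14 lie above 0 and Cyp4a32 below it.

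Cyp4a10 and Cyp4a14, the PPARA targets, had the highest means over all 45 libraries (681.9 and 598.6 TPM, against 141 for Cyp4a12a), although over the control-labelled libraries the median of Cyp4a14 (195 TPM) lay below that of Cyp4a12a (278 TPM). Both were higher in ethanol-labelled libraries at every stage. Cyp4a10 at peak was 1342, 438, 433 and 750.8 TPM in control female-labelled libraries and 1697, 1542, 1562 and 1599 TPM in ethanol female-labelled ones. Under the male label it was 190.1, 256, 283 and 436.5 TPM with the control label and 407, 688, 426 and 417 TPM with the ethanol label. The ethanol female-labelled libraries lay above all others, with a mean of 1600.1 ± 68.9 TPM (SD, n = 4), and the ethanol male-labelled ones overlapped the controls of both sex labels. Cyp4a10 rose by 1.02 ± 0.32 on the log2 scale (2.02-fold, limma adjusted p = 0.016).

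Cyp4a14 at peak was 906, 208, 309 and 841 TPM in control female-labelled libraries and 1889, 1750.4, 1882 and 1373 TPM in ethanol female-labelled ones. Under the male label it was 55.4, 101, 89 and 457 TPM with the control label and 356, 691, 439 and 377 TPM with the ethanol label. The female-labelled ranges were apart and the male-labelled ones overlapped through control male 4. Cyp4a14 rose by 1.86 ± 0.49 on the log2 scale (3.64-fold, limma adjusted p = 0.0041), and 7 of 8 ethanol-labelled libraries were above the control mean.

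At early resolution the PPARA targets had their lowest group means in control female-labelled libraries. Cyp4a10 was 138, 64, 200.5 and 266 TPM in control female-labelled libraries and 577, 216, 592 and 433 TPM in control male-labelled ones, against 580.2, 751 and 1289 TPM and 1022, 997, 1147 and 1318 TPM with the ethanol label. Cyp4a14 was 61.9, 39.6, 60.5 and 182 TPM in control female-labelled and 646, 101, 348 and 211 TPM in control male-labelled libraries. With the ethanol label Cyp4a14 was 685, 766 and 898 TPM under the female label and 848, 752, 841 and 1155 TPM under the male label. The lowest ethanol-labelled Cyp4a14 value lay above the highest control, which held for 1.85% of all genes, and Cyp4a10 overlapped at its lowest ethanol-labelled library. Cyp4a10 rose by 1.94 ± 0.33 (3.84-fold, limma adjusted p = 6.5e-05) and Cyp4a14 by 2.59 ± 0.51 (6.01-fold, adjusted p = 0.0004) on the log2 scale. The median of all genes at this stage was 0.13, and after median-of-ratios scaling, which sets it to -0.03, the differences were 1.76 and 2.41.

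At late resolution Cyp4a10 was 773, 259, 479 and 73.6 TPM in control female-labelled and 543, 376, 342 and 306 TPM in control male-labelled libraries. With the ethanol label it was 1622, 864 and 933 TPM under the female label and 749, 565 and 744 TPM under the male label. The highest control-labelled value was that of late control female 1, which lay inside the ethanol-labelled range. Cyp4a10 rose by 1.37 ± 0.35 (2.59-fold, limma adjusted p = 0.0069) and Cyp4a14 by 2.06 ± 0.53 (4.16-fold, adjusted p = 0.0077), and without that library by 1.61 and 2.45. Fitted on the late libraries alone, neither passed (adjusted p = 0.059 and 0.069).

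Within the sex labels the calls of the PPARA targets were uneven. Under the female label, Cyp4a10, Cyp4a14 and Cyp4a31 passed at early resolution (2.48 ± 0.49, limma adjusted p = 0.0011 for Cyp4a10) and at late resolution (1.91 ± 0.49, adjusted p = 0.024 for Cyp4a10). The share of all genes called there was 3.92% at early resolution, 2.45% being higher, and 2.46% at late resolution, 1.41% being higher. At peak, where 6.65% of genes were called, they did not pass (adjusted p = 0.086, 0.099 and 0.15) although the female-labelled ranges of Cyp4a10 and Cyp4a14 were apart, as for 10.4% of genes higher. Under the male label Cyp4a14 passed at peak (1.87 ± 0.69, adjusted p = 0.045, with 23.4% of genes called) and Cyp4a10 at early resolution (1.40 ± 0.45, adjusted p = 0.047, with 8.39% called). At late resolution under the male label, with 6.44% of genes called, neither passed (0.83 ± 0.49 and 1.22 ± 0.74, adjusted p = 0.33 and 0.35).
The late female-labelled calls of Cyp4a10 and Cyp4a14 ended without control female replicate 4, whose values were the lowest (1.26 and 1.91, limma adjusted p = 0.22 and 0.23). They also ended without control replicate 2, without ethanol replicate 1 or 3, and with array weights (adjusted p = 0.087 and 0.096). Fitted on the late libraries alone, no member passed under the female label, Cyp4a12a and Cyp4a12b included (-6.0 and -5.35, adjusted p = 0.12 each). With all stages in the fit these 2 differences had adjusted p = 0.0003 and 0.00014, and without late control female 1 they were -8.15 and -7.20 (adjusted p = 3.8e-18 and 4e-20). The Cyp4a10 call under the male label at early resolution ended under 13 alternatives, and that of Cyp4a14 at peak under 9.

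Tests of whether the diet-label difference itself differed called none of the 6 members. Between sex labels, 0.16%, 0.00889% and 0.0445% of all genes were called at peak, early and late resolution. Between stages, 0% were called from peak to early, 3.98% from peak to late and 0% from early to late. The smallest unadjusted p was that of Cyp4a32 at peak, -0.91 with a 95% interval from -1.61 to -0.22 (limma unadjusted p = 0.011, adjusted p = 0.29), more negative under the male label. Unadjusted 95% intervals also left out 0 between sex labels at late resolution for Cyp4a31 (-2.03 to -0.19) and Cyp4a12a (-5.99 to -0.21). From peak to early resolution that of Cyp4a31 did (0.07 to 1.30). Without late control female 1 the Cyp4a12a difference between sex labels was -0.95, against -3.10 with it. These tests do not show that the effects are equal: the interval for Cyp4a10 at peak ran from -1.81 to 0.79.

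Cyp4a31 and Cyp4a32, 96% identical in coding sequence, had differences of opposite sign by diet label at each stage. Cyp4a31 was the least abundant member, between 3.62 and 33 TPM. At early resolution it was 5.82, 5.11, 11.4 and 3.62 TPM in control female-labelled and 6.68, 5.33, 10.7 and 6.58 TPM in control male-labelled libraries, against 13.4, 20.6 and 25.1 TPM and 9.86, 14, 13.2 and 13.9 TPM with the ethanol label. The 2 highest controls overlapped the lowest ethanol-labelled library. Cyp4a31 rose by 1.19 ± 0.22 at early resolution (2.29-fold, limma adjusted p = 0.00016) and by 1.03 ± 0.23 at late resolution (2.04-fold, adjusted p = 0.0019). At peak its difference was 0.51 ± 0.21 and did not pass (adjusted p = 0.066).

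Cyp4a32 at peak was 106, 48.1, 41.8 and 40.5 TPM in control female-labelled libraries and 55.2, 41.2, 39.5 and 56.3 TPM in ethanol female-labelled ones. Under the male label it was 53.8, 41.7, 52.9 and 63.3 TPM with the control label and 18.6, 23.5, 34.3 and 22.4 TPM with the ethanol label. The male-labelled ranges were apart, as for 17.8% of genes lower, and the female-labelled ones overlapped. Over both sex labels Cyp4a32 fell by 0.65 ± 0.17 on the log2 scale at peak (1.57-fold, limma adjusted p = 0.0045) and by 0.60 ± 0.18 at late resolution (adjusted p = 0.028). At early resolution the difference was -0.40 ± 0.18 and did not pass as deposited (adjusted p = 0.12), while after median-of-ratios scaling it was -0.58 and passed (adjusted p = 0.035). Under the male label alone Cyp4a32 fell by 1.10 ± 0.24 at peak (adjusted p = 0.0011) and by 0.95 ± 0.26 at late resolution (adjusted p = 0.022). At early resolution its male-labelled difference was -0.57 ± 0.24 and did not pass (adjusted p = 0.15). The late male-labelled call ended under 6 of 25 alternatives, with limma adjusted p up to 0.12. Under the female label the differences of Cyp4a32 were -0.19, -0.23 and -0.24 at the 3 stages and did not pass. The late call over both sex labels ended without control female replicate 2 or 3, ethanol female replicate 2, control male replicate 3 or ethanol male replicate 3, with adjusted p up to 0.1.

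**Figure D3:**
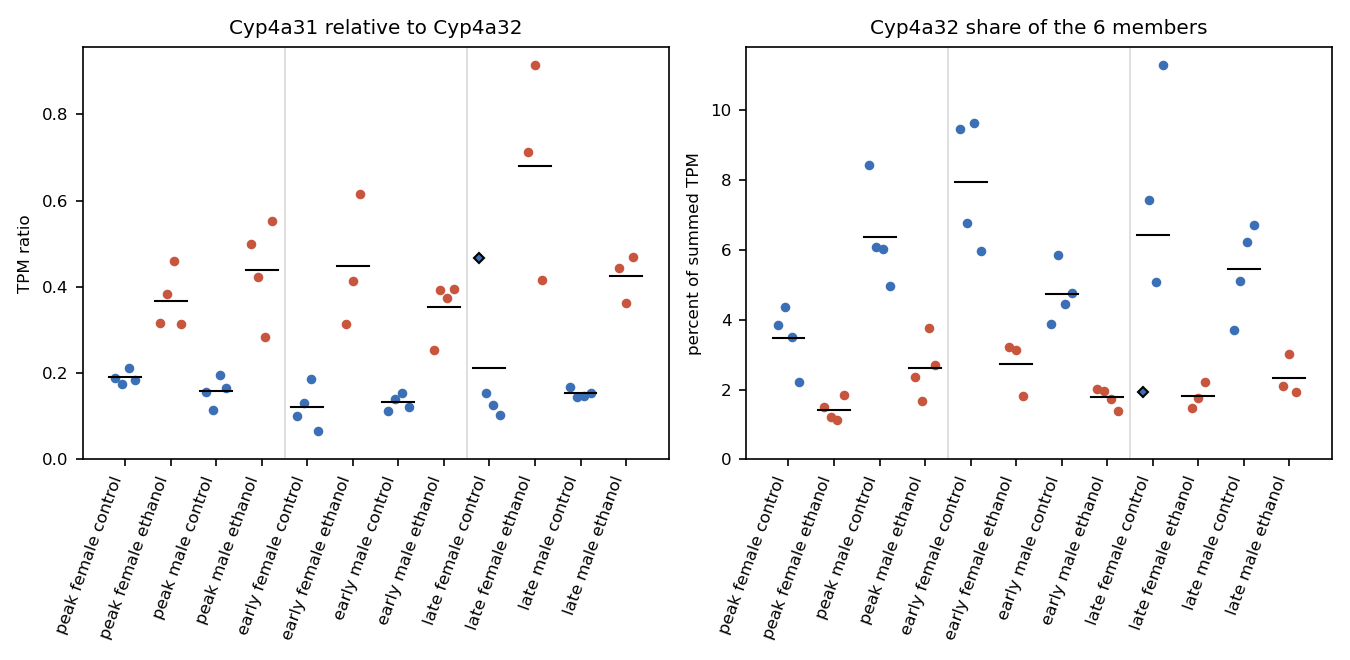
Left, the TPM ratio of Cyp4a31 to Cyp4a32, and right, the share of Cyp4a32 in the summed TPM of the 6 members, in each library by group, with bars for means and a diamond for late control female 1. The ratio lies between 0.067 and 0.213 in control-labelled libraries apart from the diamond at 0.466, and between 0.253 and 0.914 in ethanol-labelled ones.

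The ratio of Cyp4a31 to Cyp4a32 sets the members against each other within a library and so does not depend on scaling. It was 0.115 to 0.213 in peak control-labelled libraries and 0.284 to 0.552 in peak ethanol-labelled ones. At early resolution it was 0.067 to 0.187 against 0.253 to 0.615, and at late resolution 0.102 to 0.168 in 7 control-labelled libraries against 0.362 to 0.914. Late control female 1 stood at 0.466, inside the ethanol-labelled range. The ratio of Cyp4a14 to Cyp4a10 overlapped far more, with a median of 0.537 (range 0.253 to 1.12) in control-labelled and 0.904 (0.696 to 1.25) in ethanol-labelled libraries. These ratios are a description and carry the uncertainty of shared sequence named above: 34.8% of the 50-base windows of Cyp4a32 are shared with Cyp4a10, and 15.5% of those of Cyp4a31 with Cyp4a32.

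**Figure D4:**
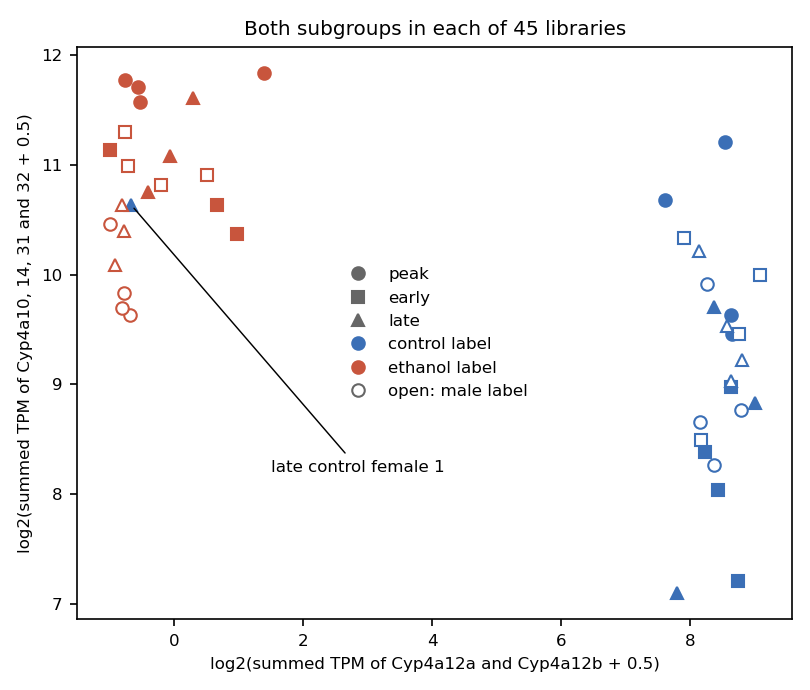
Summed TPM of the growth hormone subgroup (x) and of Cyp4a10, Cyp4a14, Cyp4a31 and Cyp4a32 (y) in each of 45 libraries on log2 axes after adding 0.5, with shape for stage, colour for diet label and open symbols for male label. Control-labelled libraries stand at the right and ethanol-labelled ones at the left, with late control female 1 among the latter, and the y values of the diet labels overlap.

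The makeup of the family was therefore divided by diet label more sharply than its total. The growth hormone subgroup made up 10.6% to 74.3% of the summed TPM of the 6 members in the 23 low-Xist control-labelled libraries and at most 0.111% in ethanol-labelled ones. The summed level was 358 to 2743 TPM in control-labelled and 791 to 3660.4 TPM in ethanol-labelled libraries, so the totals overlapped. The share in late control female 1 was 0.00827%.

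The sex label was tested by the same limma fit, male minus female. Since Xist went against this label in 22 of 45 libraries, these differences are between labels and may not be differences between the sexes. At peak 51% of all genes were called, 4.26% higher and 46.7% lower, and the median of all genes was -0.29, so most genes were lower in the male-labelled libraries on the deposited scale. Of the 6 members 4 were called, all lower: Cyp4a10 by -1.50 ± 0.32 (limma adjusted p = 0.00042), Cyp4a14 by -1.93 ± 0.49 (adjusted p = 0.0018), Cyp4a31 by -0.52 ± 0.21 (adjusted p = 0.039) and Cyp4a32 by -0.51 ± 0.17 (adjusted p = 0.015). After median-of-ratios scaling, with 31.6% of genes called and a median of 0.01, Cyp4a10 (-1.15 ± 0.30, adjusted p = 0.0037) and Cyp4a14 (-1.58 ± 0.46, adjusted p = 0.009) passed, and Cyp4a31 (-0.18) and Cyp4a32 (-0.16) did not (adjusted p = 0.52 and 0.54). The latter calls also ended without peak control female 1, which held the highest Cyp4a32 of all libraries. Cyp4a12a and Cyp4a12b differed by -0.30 and -0.13 between sex labels at peak and did not pass (adjusted p = 0.72 and 0.86).

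Among ethanol-labelled libraries at peak, 49.4% of genes were called by sex label, 45.2% lower, and the ranges of Cyp4a10, Cyp4a14, Cyp4a31 and Cyp4a32 were all lower under the male label with no overlap, as for 39.7% of genes. Cyp4a10 fell by 1.76 ± 0.45 (limma adjusted p = 0.0025), and after median-of-ratios scaling by 1.29 ± 0.42 (adjusted p = 0.019). Cyp4a14 (-1.93), Cyp4a31 (-0.72) and Cyp4a32 (-0.96) passed as deposited (adjusted p = 0.021, 0.044 and 0.0021). They did not pass after that scaling, where 31.4% of genes were called (-1.45, -0.26 and -0.50, adjusted p = 0.083, 0.51 and 0.14). With quantile normalization, which called 3269 of 11244 genes, Cyp4a14 (-1.84, limma adjusted p = 0.032) and Cyp4a32 (-0.66, adjusted p = 0.048) passed. Cyp4a31 did not (-0.30, adjusted p = 0.44). In the same contrast the neutrophil markers S100a8, S100a9 and Retnlg were higher under the male label by 2.65, 2.61 and 2.33 (adjusted p = 0.0036, 0.0022 and 0.0031). The 4 neutrophil markers summed to between 96.8 and 147 TPM there, against 6.51 to 42.2 TPM under the female label, and Ly6g was at 0 in 16 of the 45 libraries. Some markers of other cells were lower under the male label there: 3 of 6 endothelial (Kdr by -1.47, adjusted p = 0.00087), 3 of 6 stellate (Rgs5 by -0.83, adjusted p = 0.0087) and 1 of 6 Kupffer (Marco by -1.89, adjusted p = 0.0011). These counts were near or below the 45.2% of all genes that were lower in this contrast, where the median of all genes was -0.39. After median-of-ratios scaling Kdr (-1.03, adjusted p = 0.0065) and Marco (-1.45, adjusted p = 0.012) still passed and no stellate marker did. Of the 6 endothelial markers, 1 was then lower and 1 higher. Of 7 hepatocyte markers, Apoa1 (0.63, limma adjusted p = 0.021) and Tat (0.94, adjusted p = 0.036) were higher under the male label as deposited. After that scaling 3 hepatocyte markers were higher. The part of these cells in the Cyp4a result was not tested. By sex label, 0 of 6 members were called at early resolution (0.596% of genes called) and 0 of 6 at late resolution (3.25% called). The smallest unadjusted p among them was 0.0058, for Cyp4a10 at early resolution (0.98 ± 0.33, adjusted p = 0.19).

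Between stages the clearest change of the PPARA targets was in libraries labelled as controls. From peak to early resolution, control female-labelled Cyp4a10 fell by 2.16 ± 0.45 on the log2 scale (4.48-fold, limma adjusted p = 0.0084) and Cyp4a14 by 2.70 ± 0.69 (6.49-fold, adjusted p = 0.04), where 1.21% of genes were called. The Cyp4a14 call ended without peak control female 1, 3 or 4 or early control female 1, 2 or 3, and that of Cyp4a10 without early control female 2 (adjusted p = 0.052). In the control male-labelled libraries, where 0.133% of genes were called, the differences were 0.60 ± 0.45 and 1.09 ± 0.69 and did not pass. From peak to early resolution in ethanol male-labelled libraries, with 52.1% of genes called and a median of 0.41, Cyp4a10 rose by 1.24 ± 0.45 (adjusted p = 0.023) and Cyp4a32 by 0.58 ± 0.24 (adjusted p = 0.044), and neither passed after median-of-ratios scaling (0.76 and 0.11, adjusted p = 0.15 and 0.78).

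Ordered by mean level, the Cyp4a10 groups ran from 1600.1 ± 68.9 TPM in peak ethanol female-labelled libraries to 167 ± 86.2 TPM in early control female-labelled ones (SD, n = 4 each). Late ethanol female-labelled (1140 ± 419, n = 3) and early ethanol male-labelled libraries (1121 ± 147, n = 4) came next. For Cyp4a14 the same groups were at the ends, 1724 ± 242 and 85.9 ± 64.6 TPM. All 11 neighbouring pairs in the order overlapped in range for Cyp4a10, Cyp4a14, Cyp4a12a and Cyp4a12b, and 10 of 11 did for Cyp4a31 and Cyp4a32. For the Cyp4a12 pair the overlap between the lowest control-labelled group, late control female-labelled, and the highest ethanol-labelled group rests on late control female 1 alone. Cyp4a31 was highest in late ethanol female-labelled libraries, at 26.8 ± 6.58 TPM (SD, n = 3), and its break lay between peak ethanol female-labelled (17.2 ± 1.01) and late ethanol male-labelled libraries (12.9 ± 1.60). Cyp4a32 was lowest in peak ethanol male-labelled libraries, at 24.7 ± 6.73 TPM.

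**Figure D5:**
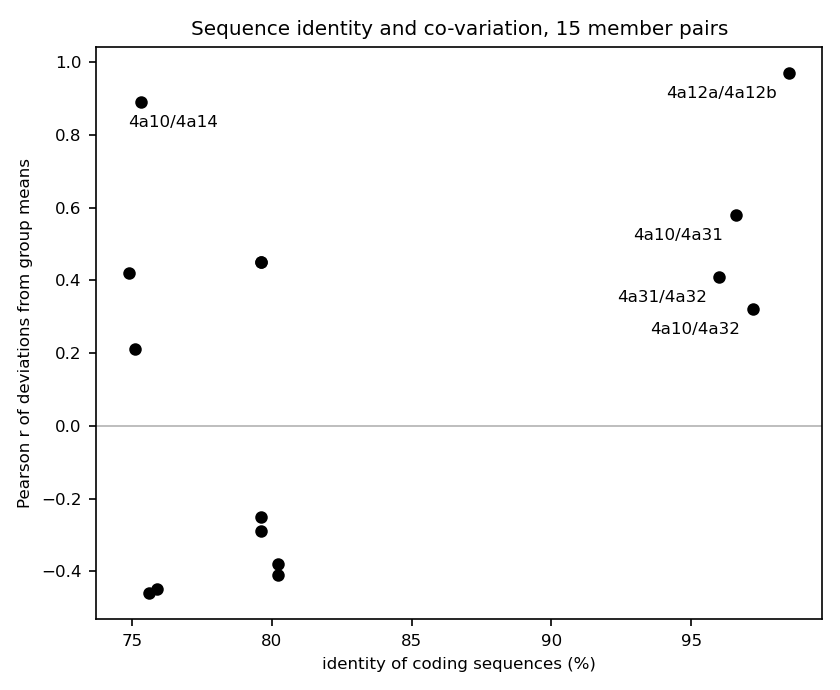
Identity of coding sequences (x, percent) and Pearson r of the deviations from group means over 45 libraries (y) for the 15 pairs of members. The Cyp4a12 pair has the highest identity and r, while Cyp4a10 and Cyp4a14 reach 0.89 at 75.3% identity and Cyp4a10 and Cyp4a32 stay at 0.32 at 97.2%.

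The PPARA targets varied together within groups, as did the Cyp4a12 pair, as a description over libraries that share their scaling. The deviations of Cyp4a10 and Cyp4a14 from their group means had a Pearson r of 0.89 over 45 libraries, and those of Cyp4a12a and Cyp4a12b an r of 0.97. Cyp4a10 and Cyp4a31 had an r of 0.58, and Cyp4a10 and Cyp4a32 an r of 0.32. The deviations of Cyp4a32 had an r of 0.21 with Cyp4a14 and of 0.45 with each of the Cyp4a12 pair. Over the 12 group means, Cyp4a32 had an r of 0.79 with Cyp4a12a and of -0.31 with Cyp4a10, and Cyp4a31 had an r of 0.85 with Cyp4a10. Mean Cyp4a12a was 199 to 291 TPM in control-labelled groups and 0.0248 to 0.583 TPM in ethanol-labelled ones. The r of 0.79 therefore largely restates that Cyp4a32 was lower with the ethanol label. Late control female 1 lies farthest from its group mean in the Cyp4a12 pair, so the r of 0.97 and 0.45 of deviations rest largely on that library. Identity and co-variation did not go together in every pair: Cyp4a14, at 75.3% identity, followed Cyp4a10 more closely than Cyp4a32 did at 97.2%.

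Among genes averaging 5 TPM or more, those with the pattern most like Cyp4a10 over the 12 group means were Acadvl (r = 0.963) and Acadl (r = 0.946), acyl-CoA dehydrogenases of mitochondrial beta-oxidation, and the pantetheinase Vnn1 (r = 0.948). Those most like Cyp4a14 were Acadl (r = 0.971), the monocarboxylate transporter Slc16a7 (r = 0.958) and Cyp2c38 (r = 0.953). In deviations from group means over 45 libraries, Gypc, Tmem192 and Slc25a39 came first for Cyp4a10 (r = 0.798, 0.791 and 0.789) and Psmd9, Acadl and Gypc for Cyp4a14 (r = 0.825, 0.773 and 0.768).
For Cyp4a12a the closest over group means were the Y-linked Eif2s3y (r = 0.998) and the major urinary proteins Mup20 and Mup14 (r = 0.997 each), and for Cyp4a12b the same 3 (r = 0.999, 0.995 and 0.994). The group means of the Cyp4a12 pair divide by diet label, so these r largely reflect that split. In deviations, Cyp4a12a was closest to Mup20, Cyp2d9 and Mup7 (r = 0.963, 0.951 and 0.942) and Cyp4a12b to Mup20, Cyp2d9 and Eif2s3y (r = 0.946, 0.945 and 0.938). In late control female 1 Cyp4a12a was 0.13 TPM, against 169 to 397 TPM in the rest of its group. The deviations of the pair are largest there, so these r rest largely on that library. Cyp4a31 was closest over group means to the hydroxysteroid dehydrogenase Hsd17b6 (r = 0.966), Xab2 (r = 0.950) and Ruvbl2 (r = 0.941). Cyp4a32 was closest to Proca1 (r = 0.943), the soluble epoxide hydrolase Ephx2 (r = 0.939) and Timm9 (r = 0.935). In deviations these 2 members had weaker likeness, at most 0.713 for Cyp4a31 (AU022252) and 0.571 for Cyp4a32 (Cyp2c23).

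Other targets of PPARA were less uniform than Cyp4a10 and Cyp4a14. Of 35 listed genes of fatty acid oxidation and lipid handling, 10 rose and 2 fell by diet label at peak, with a median difference of 0.22 against 0.05 over all genes. At early resolution 14 rose and 2 fell (median 0.34 against 0.13), and at late resolution 8 rose and 4 fell (0.20 against 0.05). Of all genes, 17.3%, 14.3% and 8.82% were called higher at the 3 stages, and 9.81%, 2.46% and 3.98% lower. After median-of-ratios scaling, which called 35.7%, 16.7% and 21.1% of all genes at the 3 stages, the counts were 8 and 4, 11 and 3, and 6 and 6. The acyl-CoA thioesterase Acot2 rose by 2.34 ± 0.26 at peak (limma adjusted p = 9.8e-09), the pyruvate dehydrogenase kinase Pdk4 by 2.29 ± 0.38 (adjusted p = 2.7e-05) and the lipid droplet protein Plin2 by 1.11 ± 0.22 (adjusted p = 0.00031). Acadl rose by 0.69 ± 0.11 at early resolution (adjusted p = 3.1e-05) and Acsl1, an acyl-CoA synthetase, fell by 0.81 ± 0.21 at late resolution (adjusted p = 0.0096). Among 11 genes of the PPARA receptor, its partners and coregulators, 1 was called by diet label at peak, Pparg (0.63 ± 0.19, adjusted p = 0.013), and 0 at the later stages. By sex label at peak, 26 of the 35 PPARA targets were lower and 0 higher (median -0.44 against -0.29), beside 46.7% of all genes lower. After median-of-ratios scaling 12 were lower and 1 higher, where 15.4% of all genes were lower.

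Nearly all listed genes known for growth hormone dependent sex bias passed by diet label, under the same limit from Xist as the Cyp4a12 pair. Of 20 male-biased genes tested, 19, 20 and 19 fell at peak, early and late resolution and 0 rose, with median differences of -5.08, -4.53 and -3.84. Of 22 female-biased genes, 22 rose at each stage, with medians of 5.12, 6.31 and 5.73. Of all genes, 9.81%, 2.46% and 3.98% fell and 17.3%, 14.3% and 8.82% rose at these stages. At peak the fatty acid elongase Elovl3 fell by 5.51 ± 0.36 (limma adjusted p = 2.5e-13) and the male-biased P450 Cyp2d9 by 5.72 ± 0.40 (adjusted p = 8e-13), and the female-biased transporter Slc22a26 rose by 6.25 ± 0.45 (adjusted p = 1.3e-12). Of 12 genes of growth hormone receptor signalling, 3 rose and 0 fell at peak, where 17.3% of all genes were higher and 27.1% were called either way. After median-of-ratios scaling, which called 35.7% of all genes, 2 rose and 3 fell. Those that rose as deposited were Hnf4a (0.59 ± 0.13, adjusted p = 0.00059), the feedback inhibitor Cish (1.10 ± 0.32, adjusted p = 0.0089) and Onecut1 (0.68 ± 0.26, adjusted p = 0.045, and 0.054 after median-of-ratios scaling). At late resolution the repressor Bcl6 fell by 1.64 ± 0.42 (adjusted p = 0.0071) and Cish rose by 1.11 ± 0.34 (adjusted p = 0.027).

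Of 8 other Cyp4 genes tested, 2 passed at peak, a share near the 27.1% of all genes. After median-of-ratios scaling, which called 35.7% of all genes, 1 rose and 3 fell. As deposited, Cyp4f16 rose (0.64 ± 0.18 at peak, limma adjusted p = 0.0092) and Cyp4v3 fell (-0.67 ± 0.15, adjusted p = 0.00082), as each did at the later stages. The electron donors Por and Cyb5a, which P450 enzymes need, were not called at peak. Por rose by 0.68 ± 0.14 and Cyb5a by 0.57 ± 0.14 at early resolution (adjusted p = 0.00074 and 0.0047), and Cyb5a did not pass after median-of-ratios scaling (adjusted p = 0.093). Of 16 genes of omega oxidation and dicarboxylic acid breakdown, 5 rose and 3 fell at peak and at early resolution, and 3 rose and 3 fell at late resolution. Of all genes, 27.1%, 16.7% and 12.8% were called at these stages. After median-of-ratios scaling 3 rose and 4 fell at peak, 4 rose and 3 fell at early resolution, and 3 rose and 5 fell at late resolution. That scaling called 35.7%, 16.7% and 21.1% of all genes at these stages. The peroxisomal transporter Abcd2, which is also on the female-biased list, rose by 1.77 ± 0.33 at peak (adjusted p = 9.1e-05) and the bifunctional enzyme Ehhadh by 0.97 ± 0.18 (adjusted p = 0.00011). The thiolase Scp2 fell by 0.86 ± 0.12 (adjusted p = 6.2e-07) and the alcohol dehydrogenase Adh4 by 1.09 ± 0.21 (adjusted p = 0.00023). The lists were chosen with results of these data known, so their counts are descriptions.

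Markers of other liver cells also moved with the diet label. At peak, 6 of 6 endothelial markers were higher with the ethanol label (Cdh5 by 1.04 ± 0.16, limma adjusted p = 8.6e-06), as were 4 of 6 stellate cell markers, while 0 of 7 hepatocyte markers were called, beside 17.3% of all genes higher. Of the hepatocyte markers, Alb (0.70 ± 0.14, adjusted p = 0.00043) and Asgr1 (0.31 ± 0.10, adjusted p = 0.022) were higher at early resolution by limma. After median-of-ratios scaling 1 of the 7 was lower at peak, and Asgr1 did not pass at early resolution (0.13, limma adjusted p = 0.37). At late resolution Alb (0.63 ± 0.14, adjusted p = 0.0027) and Apoa1 (0.53 ± 0.17, adjusted p = 0.039) were higher and Tat fell by 1.14 ± 0.28 (adjusted p = 0.0061). After that scaling Apoa1 did not pass there (0.44, limma adjusted p = 0.14), and 1 hepatocyte marker was higher and 2 were lower. At early resolution 4 of 6 Kupffer cell markers were higher, against 14.3% of all genes, and 2 after median-of-ratios scaling, and at late resolution 4 of 4 tested T and B cell markers were, against 8.82% of all genes. Over all stages the summed endothelial markers ranged from 46.7 to 179 TPM in control-labelled and from 73.9 to 242 TPM in ethanol-labelled libraries. The stellate sums ranged from 31.6 to 107 TPM and from 71.9 to 252 TPM, and those of the Kupffer markers from 95.4 to 492 TPM and from 127 to 475 TPM. No endothelial, stellate or Kupffer marker was at 0 in any library. Their part in the Cyp4a results was not tested.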

How the data were processed

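Liver RNA libraries (stranded mRNA kit, per the labels' protocols) were quantified by the authors, who deposited TPM per gene symbol. The build is mm10 per the submitters' processing notes. The aligner, counter and annotation: not given in the sources used here. Of 24972 entries, 26 date-like names (0.044% of TPM) were left out. Totals were 999999 to 1000001 TPM.

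Here limma 3.58.1 (R 4.3.3, trended empirical Bayes) was fitted to log2(TPM + 0.5) of 11244 genes averaging 0.5 TPM or more (99.93% of TPM), with 12 group means, 33 residual degrees of freedom and Benjamini-Hochberg adjustment per comparison. All 6 members passed the filter. On simulated data for diet label at peak (11244 genes), 93 of 100 changes of 1 log2 unit and 99 of 100 changes of 2 were recovered, with 12 false calls. Alternatives changed pseudocount, filter, scaling, variance model, weights, libraries and block. Sequences came from GENCODE M21 (Python 3.11.15, Biopython 1.88).

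Members and lists were chosen with earlier results of these data known. Text names all members, up to 4 called genes per list and comparison with the smallest p, 3 most alike genes per member, and sex chromosome transcripts. The lists cover PPARA targets and partners, growth hormone targets and signalling, other Cyp4 genes, P450 partners, omega oxidation, and markers of hepatocytes, endothelium, Kupffer, stellate, cholangiocyte, T and B, neutrophil and kidney cells.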

Additional observations from a re-analysis of the deposited data

Results flagged for a closer look

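In 54 sets of 4 libraries (6 members in 9 groups), 9 had a library far from the other 3. The gap to the nearest library is given as a share of the group's range. Chance alone would mark about 1 in 20 groups if the values were normally distributed. Raw TPM values need not be, above all in groups near 0, so that rate may not apply here. Peak control female 1 stood above its group in Cyp4a31 (19.9 TPM, gap share 0.882) and Cyp4a32 (106 TPM, gap share 0.882). In the same group, Cyp4a12a was lowest in library 4 (155 TPM, gap share 0.944). In peak control male-labelled libraries Cyp4a14 was highest in library 4 (457 TPM, gap share 0.887), and in early control female-labelled ones in library 4 (182 TPM, gap share 0.843). In peak ethanol male-labelled libraries Cyp4a10 was highest in library 2 (688 TPM, gap share 0.932). Peak ethanol female 1 held Cyp4a12a at 1.81 TPM against at most 0.18 in the other 3 (gap share 0.951). Cyp4a12b in peak ethanol male-labelled libraries was 0.05 TPM in library 3 and 0 in the other 3 (gap share 1.000). Early ethanol male 1 was highest in Cyp4a32 (38.9 TPM, gap share 0.936).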

How the results depend on the processing

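Over 12 comparisons (diet label, sex label, their interaction and changes of the diet effect between stages), 20 differences of members were called. Of their 519 alternatives 495 kept the call, 24 ended it and 0 reversed it, and of 1587 alternatives of the 52 differences not called 9 gave a call. The number of members called by sex label at peak went from 4 to 2 with quantile normalization and to 2 with median-of-ratios scaling, and ranged from 2 to 4 over fits that left out 1 library, 2 being without peak control female 1. The number called by diet label at late resolution went from 6 to 3 in the late libraries alone. With array weights, 1 member in place of 0 was called for the interaction at peak (Cyp4a32), by sex label at early resolution (Cyp4a10) and by sex label at late resolution (Cyp4a31). Leaving out 1 library gave 5 to 6 members by diet label at peak, 5 at early and 5 to 6 at late resolution. The causes were not tested.

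Same-numbered control-labelled and ethanol-labelled libraries share only a number: their deviations correlated between -0.371 and 0.25 over 21 pairs (median -0.053, 7 above 0.1, 6 best with their own number). With the replicate block, Cyp4a31 at peak was called (0.51, limma adjusted p = 0.018) and Cyp4a32 at late resolution was not (-0.63, adjusted p = 0.094), nor were the late female-labelled differences of Cyp4a10 (1.26, adjusted p = 0.09) and Cyp4a14 (1.91, adjusted p = 0.14). The share of all called genes that were higher moved with scaling: 63.8% at peak, 85.3% at early and 68.9% at late resolution by diet label became 42.1%, 45.5% and 40.6% after median-of-ratios scaling, and 8.4% by sex label at peak became 51.1%. Genes called numbered 5729 by sex label at peak as deposited and 3553 after that scaling, and 1440 and 2374 by diet label at late resolution. TPM keeps no depth, so no counting error could be set on levels near 0.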
